A study of Mus musculus with 12 samples.

Results

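Osteoblast lineage factors and bone matrix markers were followed in W-20 cells, a mouse bone marrow stromal cell (BMSC) line. The set held 10 genes: the transcription factors *Runx2*, *Sp7*, *Dlx5* and *Msx2*, the phosphatase gene *Alpl*, the matrix genes *Bglap*, *Spp1*, *Ibsp* and *Sparc*, and the peptidase gene *Phex*. Their rows were found by stable gene identifier, and all 10 were among the 56980 genes of the count matrix. Bulk RNA-Seq was available for 12 libraries in 4 groups of 3. WT cells, the unmodified line labelled W-20-17, had been given either vehicle (PBS) or parathyroid hormone (PTH) at 50 nM for 2 hours, and Y428F cells had been given the same 2 treatments. All cells were grown in DMEM with serum, and no osteoblast differentiation medium is named for these libraries. Y428F stands for YAP, the coactivator of the Hippo pathway, with a tyrosine changed to phenylalanine. The methods describe stable lines made with Flag-tagged YAP plasmids and puromycin selection of positive clones, with Y428F either alone or together with S381A, and the study's text names the sequenced line S381A/Y428F. The titles read Y428F and the genotype field of the same libraries reads WT, so the titles set the groups here. Because no line with introduced unmutated YAP was analysed here, effects of the mutation cannot be told apart from those of other differences between the lines.

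Osteoblasts arise from stromal progenitors. *Runx2* is the transcription factor required for commitment to the lineage, and *Sp7* (osterix) acts downstream of it. *Dlx5* and *Msx2* encode homeodomain factors of the developing skeleton. Later, cells deposit collagen and the noncollagenous proteins osteonectin (*Sparc*), osteopontin (*Spp1*), bone sialoprotein (*Ibsp*) and osteocalcin (*Bglap*). Tissue-nonspecific alkaline phosphatase (*Alpl*) hydrolyses pyrophosphate, an inhibitor of mineral growth. *Phex*, a membrane peptidase gene of osteoblasts and osteocytes, is mutated in X-linked hypophosphatemia. PTH acts on these cells through its receptor, PTH1R, and raises cAMP.

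Short stretches from the promoters of the genes are given for 2 recognition cores: ACCACA, the core bound by RUNX factors, and TGACG, part of the cAMP response element. RefSeq windows from 250 bases before to 50 bases after a start were available for 8 of the 10 genes, with 10 windows in all, and *Sp7* and *Dlx5* are only named. The windows come from a table of build GRCm38.p6, and the 250 bases before each start matched GRCm39 at 1 place, from which the coordinates are taken. Each stretch below is 30 bases long, reads 5′ to 3′ with the core in capitals, and is written on the strand on which the core reads as spelled.
Runx2 (GRCm39, chr17:45125577-45125606, minus strand): gtgaggtcacaaACCACAtgattctgtctc
Spp1 (GRCm39, chr5:104582837-104582866, plus strand): tttttttttttaACCACAaaaccagaggag
Bglap (GRCm39, chr3:88291888-88291917, minus strand): ccgcaatcacctACCACAgcatcctttggg
Msx2 (GRCm39, chr13:53626900-53626929, plus strand): cggccctgctccTGACGccacggacgctcg
Phex (GRCm39, chrX:156198285-156198314, minus strand): aagagtaactttTGACGacgacagttcaga
Ibsp (GRCm39, chr5:104447062-104447091, plus strand): gaacccacagccTGACGttgtgctggccac
Alpl (GRCm39, chr4:137493898-137493927, plus strand): tggggggagggcTGACGctgttcactaaac

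ACCACA, on either strand, was in 4 of the 10 windows, those of *Runx2*, *Bglap* and *Sparc* and 1 of the 2 of *Spp1*, and in 16.8% of all 32851 RefSeq windows. In the *Sparc* window it lay after the start and is not shown. TGACG was also in 4 of the 10, those of *Msx2*, *Phex* and *Ibsp* and 1 of the 2 of *Alpl*, against 20.8% of all windows. The homeodomain cores TAATTG and TAATTA were in 3 and 2 of the 10 windows, against 8.0% and 5.29% of all. Neither the AP-1 motif TGACTCA (5.2% of all windows) nor the TEAD core GGAATG (14.7%) was in these 10 windows. TEAD factors are the DNA-binding partners of YAP. These matches describe letters in short windows. In GENCODE vM39 the 250 bases before the RefSeq start reach past the annotated gene start for every window except that of *Bglap*. The reach was 26 bases for *Phex* and up to 30316 bases for 1 window of *Alpl*, the one from which the *Alpl* stretch is shown. The stretches of *Runx2*, *Spp1*, *Msx2*, *Ibsp* and *Alpl* lie inside the annotated genes.

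The genes fell into 5 with counts in every library and 5 at or near 0. The libraries held 17127897 to 19057319 counts (median 17740980). Levels are given as CPM, read counts relative to library size after TMM scaling over the 12 libraries, and 3 counts correspond to between 0.152 and 0.185 CPM. *Sparc* (GRCm39, 11:55285317-55314067, minus strand) had a total of 414280 counts over the 12 libraries. *Spp1* (5:104582165-104589235, plus strand) had 132694.9, and *Runx2* (17:44806874-45125684, minus strand) had 17673.1. *Msx2* (13:53620914-53627110, minus strand) had 1710 and *Phex* (X:155945071-156198308, minus strand) had 436. RSEM assigns shared reads in fractions, so totals need not be whole.

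The other 5 genes, which include lineage factors as well as matrix genes and *Alpl*, were not detected, or barely. *Dlx5* (6:6877804-6882092, minus strand) had 0 counts in all 12 libraries. *Ibsp* (5:104447037-104459338, plus strand) had 1 count, in Y428F vehicle replicate 1. *Bglap* (3:88290808-88291771, minus strand) had 2 counts, both in WT PTH replicate 2. *Sp7* (15:102265038-102279370, minus strand) had 16 counts in 6 libraries. These were 2, 4 and 0 in the WT vehicle libraries, 2, 0 and 0 in WT PTH, 3, 1 and 0 in Y428F vehicle and 0, 4 and 0 in Y428F PTH. *Alpl* (4:137469039-137524102, minus strand) had 33 counts in 8 libraries. In WT vehicle there were 2, 5 and 7 of them, in WT PTH 3, 2 and 0, in Y428F vehicle 0, 3 and 0, and in Y428F PTH 0, 6 and 5. No library therefore had more than 7 counts of any of these 5 genes, and small changes in them were not detectable at this depth. The groups overlapped for *Sp7* and *Alpl* in every comparison in which they were tested.

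*Bglap* lies beside near-identical copies, and counts can be split among them. *Bglap2* had 1 count in WT vehicle replicate 3 and 3 in Y428F PTH replicate 3. For *Bglap3* the counts were 4, 1 and 0 in WT vehicle, 1, 0 and 3 in WT PTH, 2, 1 and 6 in Y428F vehicle and 5, 1 and 1 in Y428F PTH. Summed over the 3 genes, osteocalcin had 31 counts in the 12 libraries and between 1 and 6 in each, and the sum passed edgeR's test in none of the 5 comparisons (adjusted p between 0.637 and 1). *Ibsp* and *Spp1* belong to a run of secreted phosphoprotein genes on chromosome 5. Its members *Dspp*, *Dmp1*, *Ibsp* and *Mepe* had 0, 1, 1 and 0 counts over all libraries, whereas *Spp1*, at the end of the run, was among the most abundant transcripts.

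**Figure D1:**
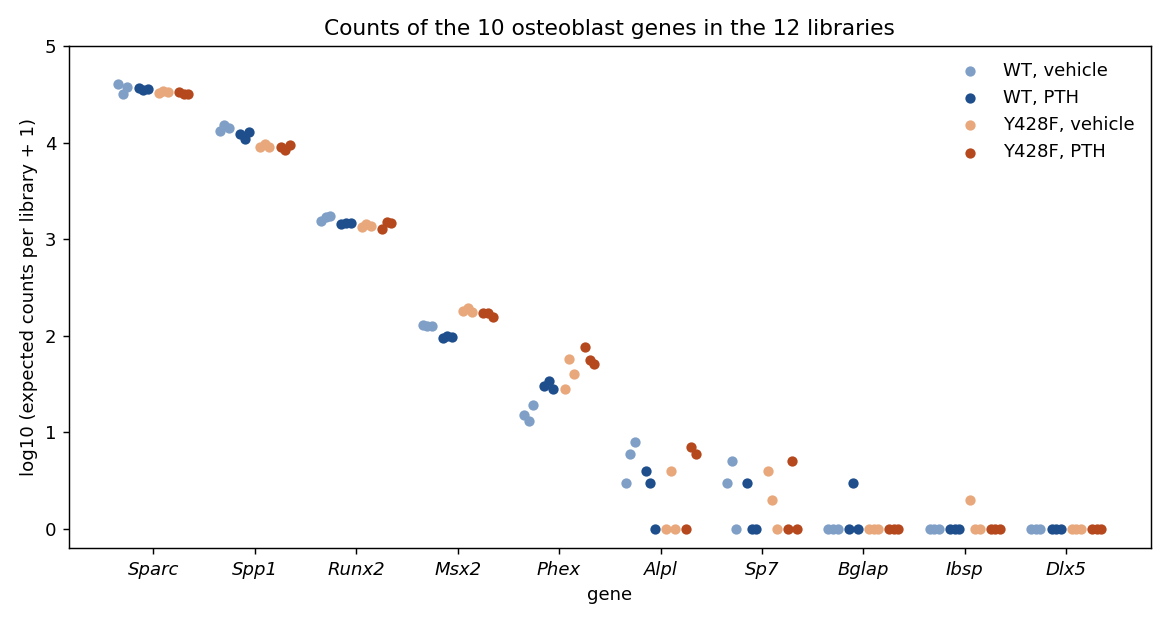
Expected counts of the 10 genes in each of the 12 libraries, on a log10 (counts + 1) scale; each point is 1 library, coloured by line and treatment. *Sparc*, *Spp1*, *Runx2*, *Msx2* and *Phex* were counted in every library, and the other 5 genes had at most 7 counts in a library.

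Levels between genes were compared per kb of merged exon. The order was *Sparc*, *Spp1*, *Runx2*, *Msx2* and *Phex* in all 4 groups, and no 2 neighbours in that order overlapped within a group. In WT vehicle the levels were 466, 270, 10.2, 2.08 and 0.127 CPM per kb. In Y428F vehicle they were 418, 172, 8.29, 2.95 and 0.344 CPM per kb. *Sparc* and *Spp1* thus stood an order of magnitude above the lineage factor *Runx2*. Among all genes ranked by CPM per kb, *Sparc* was at percentile 99.8 and *Spp1* at percentile 99.6 in WT vehicle, *Runx2* at 85.0, *Msx2* at 65.0 and *Phex* at 45.8. *Alpl*, *Sp7*, *Bglap*, *Ibsp* and *Dlx5* lay below *Phex*, and their neighbours in the order overlapped.

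The identity of the line was checked against marker genes. Most stromal genes were abundant. *Vim* (vimentin) was the highest of 12 stromal markers, with a mean of 4726 CPM in WT vehicle. The summed level of the 12 was 7615 to 7799 CPM in the WT vehicle libraries and 5729 to 6169 CPM in the Y428F vehicle libraries. The collagen genes *Col1a1* and *Col1a2* had 7049 and 12829 CPM in WT vehicle. Against the label of marrow stroma, *Thy1* (CD90) was at 0 in all libraries and *Nt5e* (CD73) had at most 3 counts in any. *Lepr*, also of this list, averaged 0.143 CPM in WT vehicle and 1.03 CPM in Y428F vehicle. Of the osteocyte markers, *Sost*, *Mepe* and *Fgf23* were at 0 and *Dmp1* at 3 counts or fewer in every library. The muscle factors *Myod1*, *Myog* and *Myf5*, the cartilage genes *Acan* and *Matn1*, the T cell gene *Cd3e* and the adipocyte gene *Adipoq* were also at 0 throughout. Other genes of these lists were expressed. Of the osteocyte list, *Hyou1*, *Capg*, *Cd44*, *Irx5* and *Pdpn* averaged 312, 283, 118, 42.1 and 11.7 CPM in WT vehicle. The adipocyte genes *Lpl*, *Cebpa*, *Pparg* and *Fabp4* averaged 330.2, 46.1, 31.7 and 26.9 CPM, and the cartilage factor *Sox9* averaged 55.1 CPM. The cells thus expressed collagen and stromal genes with *Runx2*, *Spp1* and *Sparc*, while *Bglap*, *Ibsp*, *Sost*, *Mepe*, *Fgf23* and *Dmp1* were at or near 0. In bulk RNA, fewer cells expressing a gene and less RNA of it per cell cannot be told apart.

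The receptor gene *Pth1r* had 0 to 10 counts in a library. The WT vehicle libraries had 6, 0 and 2, WT PTH 8, 1 and 2, Y428F vehicle 3, 10 and 10, and Y428F PTH 4, 10 and 7. For *Yap1*, the levels in WT cells were 180.6, 191.9 and 193.9 CPM with vehicle and 244.7, 246.2 and 230.4 CPM with PTH. In Y428F cells they were 149.6, 141.2 and 148.9 CPM with vehicle and 171.1, 168.5 and 173.9 CPM with PTH. *Yap1* rose with PTH in WT cells, by 0.36 on the log2 scale (SE 0.0584, adjusted p = 0.00154). It also rose in Y428F cells, by 0.22 (SE 0.053, adjusted p = 0.00739). The difference between the 2 responses did not pass the test (-0.12, 95% interval -0.28 to 0.0308, adjusted p = 0.811). *Yap1* levels do not settle the genotype, since base substitutions in *Yap1* are not seen in gene counts.

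Among the WT libraries, vehicle replicate 1 and PTH replicate 3 stood apart from the other 4 on the second principal component, scoring 82.6 and 77 where the others scored -57.7 to -26.5. Among the Y428F libraries, the PTH replicates scored 86.3, -96.4 and -21.7 on this component of their own analysis and the vehicle replicates 9.23 to 11.3. The labels name no batch. Calls of the members that change without these libraries are given with and without them. The labels do not say whether replicates were separate cultures, so the p-values measure the spread between these samples, which may be technical.

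The effect of PTH in WT cells was tested on the 6 WT libraries with edgeR's quasi-likelihood test. Of the 10 genes, 6 had enough counts to be tested and 1, *Phex*, passed, against 11.8% of the 15583 genes tested (6.88% higher and 4.91% lower with PTH). Of all genes called, 58.4% were higher, or 38.0% when libraries were scaled by their totals alone. *Phex* had 0.740, 0.682 and 0.966 CPM with vehicle (14, 12 and 18 counts) and 1.71, 2.03 and 1.57 CPM with PTH (29, 33 and 27 counts). The PTH libraries all lay above the vehicle libraries, as for 14.3% of the genes tested. The mean rose from 0.796 ± 0.150 to 1.77 ± 0.235 CPM (SD, n = 3 each), a log2 fold change of 1.15 (SE 0.327, 95% interval 0.444 to 1.85) with an edgeR adjusted p = 0.0371, or 2.22-fold. The call stood near the threshold. It was lost with DESeq2 (adjusted p = 0.0516), when any of the 6 libraries was left out, and without the 2 libraries that stood apart (adjusted p = 0.0683), whereas the fold change stayed between 1.05 and 1.32 on the log2 scale in 14 alternatives.

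The transcription factors did not pass the test with PTH in WT cells. *Runx2* had 82.2, 95.4 and 93.2 CPM with vehicle and 84.7, 89.4 and 85.9 CPM with PTH, and the groups overlapped. Its log2 fold change was -0.05, with a 95% interval of -0.198 to 0.0961 (adjusted p = 0.718). *Msx2* had 6.82, 7.05 and 6.65 CPM with vehicle and 5.54, 6.09 and 5.65 CPM with PTH. All 3 PTH libraries were below the 3 vehicle libraries, as for 14.7% of the genes tested, but the log2 fold change of -0.24 (95% interval -0.532 to 0.0482) had an adjusted p = 0.296.

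Neither abundant matrix gene passed at this time. *Spp1* had 692.8, 853.5 and 757.8 CPM with vehicle and 716.8, 673.1 and 751.1 CPM with PTH. *Sparc* had 2129, 1828 and 2004 CPM with vehicle and 2138, 2154 and 2109 CPM with PTH. For *Spp1* the groups overlapped, with a log2 fold change of -0.10 (95% interval -0.271 to 0.0742, adjusted p = 0.51). For *Sparc*, too, the highest vehicle library lay within the PTH range, and the log2 fold change was 0.11 (95% interval -0.0495 to 0.268, adjusted p = 0.407). The intervals leave out changes of 2-fold. Without the 2 WT libraries that stood apart, both passed edgeR's test, *Spp1* at -0.20 (adjusted p = 0.0209) and *Sparc* at 0.17 (adjusted p = 0.0229).

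In Y428F cells none of the 7 genes tested passed with PTH, against 12.4% of 17691 genes (6.61% higher and 5.78% lower, the 12 libraries fitted together), and 1 of the 7, *Phex*, had an unadjusted p under 0.05. DESeq2 gave the same 2 counts. Of all genes called, 53.4% were higher with PTH, or 38.1% when libraries were scaled by their totals alone. *Phex* had 1.48, 2.88 and 2.13 CPM with vehicle (27, 57 and 39 counts) and 4.16, 3.09 and 2.75 CPM with PTH (75, 55 and 50 counts). The highest vehicle library was above the lowest PTH library. Its log2 fold change was 0.62 (SE 0.252, 95% interval 0.09 to 1.14), with an adjusted p = 0.128 in edgeR's test.

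The other 4 detected genes moved little in Y428F cells, and their groups overlapped. *Runx2* had 72.9, 72.4 and 74.5 CPM with vehicle and 70.5, 83.5 and 80.1 CPM with PTH (log2 fold change 0.09, adjusted p = 0.456). *Msx2* had 9.86, 9.81 and 9.45 CPM with vehicle and 9.43, 9.49 and 8.65 CPM with PTH (-0.08, adjusted p = 0.722). These factors stayed within 1.07-fold. *Spp1* had 492.8, 483.0 and 491.7 CPM with vehicle and 502.9, 472.7 and 518.9 CPM with PTH (0.03, adjusted p = 0.879). *Sparc* had 1803, 1734 and 1809 CPM with vehicle and 1833, 1770 and 1768 CPM with PTH (0.01, adjusted p = 0.971). The sign of the *Spp1* and *Sparc* differences turned with the scaling and with the libraries left out, so no direction is given for them.

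**Figure D2:**
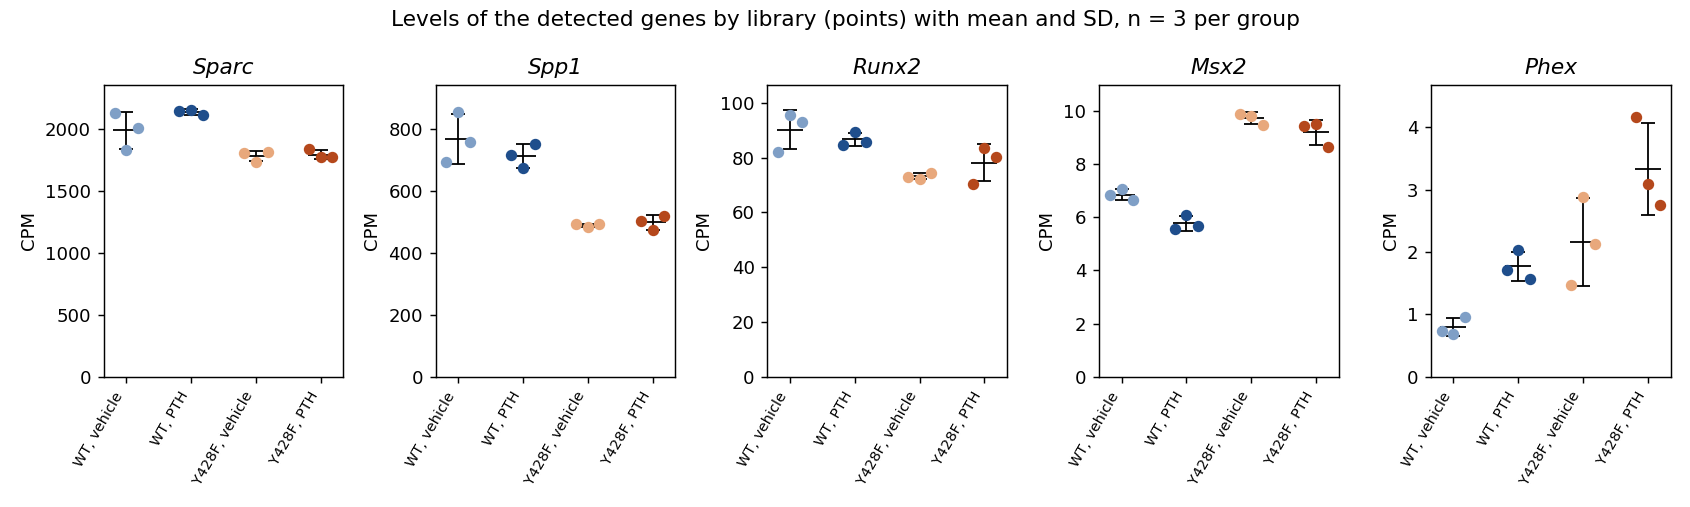
Level of each of the 5 detected genes in CPM by group; points are libraries, and bars show the mean and SD of 3 libraries, on axes that start at 0. *Spp1* was at most 518.9 CPM in the Y428F libraries and at least 673.1 CPM in the WT libraries, whereas *Msx2* and the vehicle levels of *Phex* were higher in Y428F cells.

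Whether the lines differed in their response to PTH was asked with the interaction term of the fit. None of the 7 genes tested passed, against 0.413% of 17691 genes (0.17% higher and 0.243% lower), and none had an unadjusted p under 0.05 with edgeR or DESeq2. The difference of log2 fold changes, Y428F minus WT, was -0.53 for *Phex* (95% interval -1.36 to 0.312, adjusted p = 0.871). For *Runx2* it was 0.15 (-0.0487 to 0.349, adjusted p = 0.824), and for *Msx2* 0.17 (-0.154 to 0.493, adjusted p = 0.891). *Spp1* had 0.13 (-0.0669 to 0.331, adjusted p = 0.857) and *Sparc* had -0.10 (-0.265 to 0.0731, adjusted p = 0.88). The call of *Phex* in WT cells and its absence in Y428F cells is therefore not shown to be a difference between the lines. The interval for *Phex*, the gene with the fewest counts of the 5, was the widest.

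**Figure D3:**
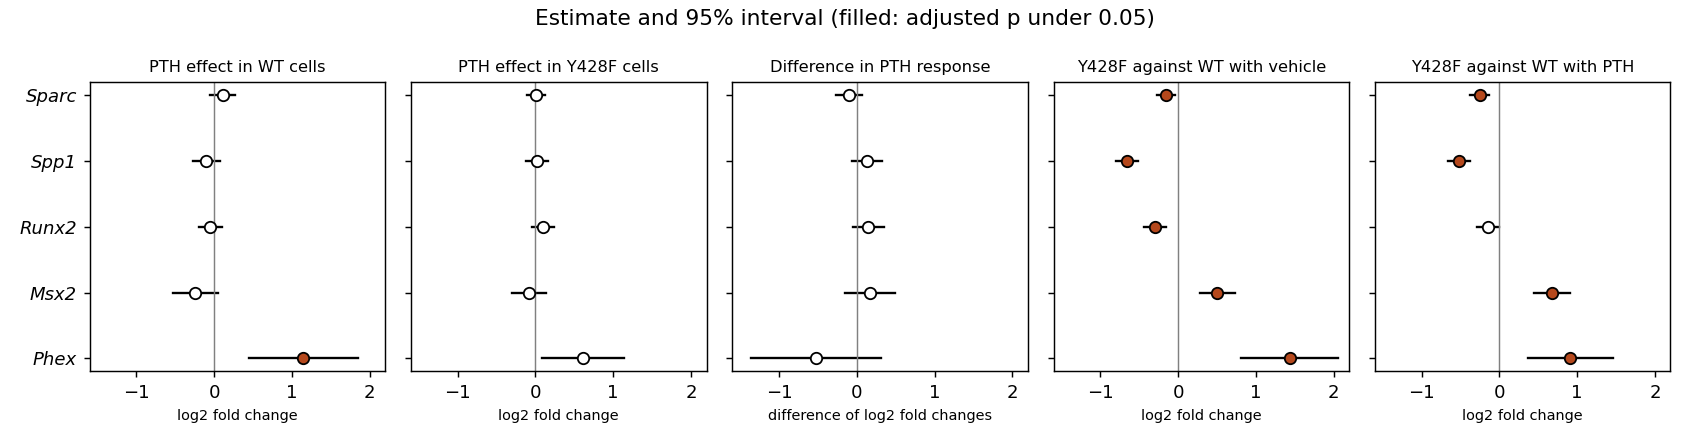
Log2 fold change, or difference of log2 fold changes for the PTH response (Y428F minus WT), of the 5 detected genes in the 5 comparisons, with 95% intervals from edgeR; filled points had an adjusted p under 0.05. The line comparisons held 5 calls with vehicle and 4 with PTH, the PTH comparisons held 1 (*Phex* in WT cells), and the difference in response held 0.

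The lines themselves differed in all 5 detected genes. With vehicle, 5 of the 7 genes tested passed, 2 higher and 3 lower in Y428F cells, where 45.1% of all genes passed (22.4% higher and 22.7% lower). The background is thus high, and a call here is common among genes of any kind. The 5 genes whose libraries did not overlap between the lines were the same 5, against 53.8% of all genes.

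Among the transcription factors, *Runx2* was lower and *Msx2* higher in Y428F cells. *Runx2* averaged 90.3 ± 7.06 CPM in WT vehicle and 73.2 ± 1.11 CPM in Y428F vehicle (SD, n = 3 each). The log2 fold change was -0.30 (SE 0.0673, edgeR adjusted p = 0.000919), or 1.23-fold lower. *Msx2* averaged 6.84 ± 0.20 and 9.70 ± 0.224 CPM (0.50, SE 0.107, adjusted p = 0.000569), or 1.42-fold higher. The 2 factors moved in opposite directions, and both calls held in all 19 alternatives. *Runx2* shares 519 exon bases with the antisense gene *Runx2os1* and 362 with *Supt3*, both on the other strand. Whether counting used strand is not given in the sources used here. *Runx2os1* had 6.10 to 47.36 counts in a library, far below *Runx2*, and *Supt3* had 8.15 to 10.08 CPM in WT and 11.14 to 13.03 CPM in Y428F libraries, opposite in direction to *Runx2*.

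Both detected matrix genes were lower in Y428F cells. *Spp1* averaged 768 ± 80.9 CPM in WT vehicle and 489 ± 5.37 CPM in Y428F vehicle, a log2 fold change of -0.65 (SE 0.0676, adjusted p = 8.56e-08), or 1.57-fold lower. *Spp1* had the smallest p of the set, and its call held in all 19 alternatives. *Sparc* averaged 1987 ± 151 and 1782 ± 41.4 CPM (-0.16, SE 0.0573, adjusted p = 0.0303), or 1.12-fold lower. This *Sparc* call was lost in 5 of 19 alternatives. These were scaling by library totals (-0.10, adjusted p = 0.154), leaving out WT vehicle replicate 1 (-0.11, adjusted p = 0.118), WT vehicle replicate 3 (-0.15, adjusted p = 0.0747) or Y428F vehicle replicate 2 (-0.14, adjusted p = 0.103), and leaving out the 2 WT libraries that stood apart (-0.10, adjusted p = 0.0877).

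*Phex* was higher in Y428F cells. It averaged 0.796 ± 0.150 CPM in WT vehicle and 2.16 ± 0.702 CPM in Y428F vehicle, a log2 fold change of 1.44 (SE 0.301, adjusted p = 0.000487), or 2.71-fold. All 3 Y428F libraries were above all 3 WT libraries, although the Y428F values spread from 1.48 to 2.88 CPM. *Phex* stayed at the foot of the 5 in level per kb, at percentile 52.0 of all genes in Y428F vehicle.

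With PTH the detected genes had the same signs as with vehicle, and 4 of the 7 genes tested passed, against 45.7% of all genes (22.8% higher and 23.0% lower). *Msx2* averaged 5.76 ± 0.290 CPM in WT PTH and 9.19 ± 0.468 CPM in Y428F PTH (log2 fold change 0.67, SE 0.112, adjusted p = 3.88e-05). *Phex* averaged 1.77 ± 0.235 and 3.33 ± 0.734 CPM (0.91, SE 0.262, adjusted p = 0.00694), a call that was lost without Y428F PTH replicate 1 (0.71, adjusted p = 0.0545). These were the 2 genes higher in Y428F cells. *Spp1* averaged 714 ± 39.1 and 498 ± 23.5 CPM (-0.52, SE 0.0676, adjusted p = 1.92e-06), and *Sparc* 2134 ± 23.1 and 1791 ± 37.1 CPM (-0.25, SE 0.0573, adjusted p = 0.00102). *Runx2* averaged 86.7 ± 2.43 and 78.1 ± 6.73 CPM. Its libraries did not overlap between the lines, nor did those of the other 4 detected genes, as for 51.9% of all genes (25.6% higher and 26.3% lower), but for *Runx2* the log2 fold change of -0.15 had an adjusted p = 0.0765. The call for *Runx2* was gained without WT vehicle replicate 1 (-0.16, adjusted p = 0.0298) and without Y428F PTH replicate 2 (-0.21, adjusted p = 0.0191).

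The line differences were set beside those of the other genes of each chromosome with at least 4 CPM. With vehicle, the median log2 fold change was -0.08 over 532 genes of chromosome 17 (*Runx2*), 0.10 over 370 of chromosome 13 (*Msx2*) and -0.02 over 675 of chromosome 5 (*Spp1*). It was 0.18 over 862 genes of chromosome 11 (*Sparc*) and 0.11 over 333 of chromosome X (*Phex*). The 5 genes lay further from 0 than their chromosome's median, except for *Sparc*, which was lower in Y428F cells by about as much as its chromosome's median was higher.

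Other genes of the osteoblast programme were read from 4 lists. The first held 20 transcription factors and cofactors beyond the members. With PTH in WT cells, 3 of the 17 tested rose and 4 fell, where 6.88% of all genes rose and 4.91% fell, with a median log2 fold change of -0.01 in the list and -0.01 over all genes. *Fosl1*, an AP-1 subunit, rose by 0.78 (SE 0.174, adjusted p = 0.0107), and *Cbfb*, the partner subunit of RUNX proteins, by 0.28 (adjusted p = 0.00654). Thus the partner of *Runx2* passed the test where *Runx2* did not. Among those that fell were *Zfp521* (-0.77, adjusted p = 0.022, or 0.105 without the 2 WT libraries that stood apart), a zinc finger protein that antagonizes Runx2, *Trps1* (-0.59, adjusted p = 0.000599), a GATA-type repressor, and *Atf4* (-0.59, adjusted p = 0.000334), a factor of osteoblast amino acid supply.

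In Y428F cells 2 of 18 factors rose with PTH and 2 fell, where 6.61% of all genes rose and 5.78% fell. The number that fell was 5 without the 2 WT libraries that stood apart and between 1 and 3 without any 1 of the Y428F PTH libraries, with 2 risen each time. *Fosl1* rose by 0.99 (adjusted p = 0.00014) and *Cbfb* by 0.25 (adjusted p = 0.00328), while *Trps1* fell by 0.29 (adjusted p = 0.0239, or 0.102 without PTH replicate 1 and 0.0917 without PTH replicate 3). *Sox4*, a SOX factor of osteoblast progenitors, moved in opposite directions in the 2 lines. It rose by 0.31 in WT cells (adjusted p = 0.00909) and fell by 0.22 in Y428F cells (adjusted p = 0.0128, or 0.0543 without PTH replicate 1). This was the only gene of the 4 lists whose response differed between the lines (-0.52, SE 0.0812, edgeR adjusted p = 0.00356).

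Between the lines with vehicle, 4 of the 18 factors were higher and 6 lower in Y428F cells, near the shares of all genes (22.4% higher and 22.7% lower). *Msx1* (-0.87, adjusted p = 0.000102), the paralog of *Msx2*, and *Twist1* (-0.57, adjusted p = 7.34e-07), a restraint on Runx2, were lower. *Msx1* and *Msx2* thus differed between the lines in opposite directions. *Zfp521* (0.79, adjusted p = 0.000994) and *Atf4* (0.46, adjusted p = 1.5e-05) were higher. With PTH, 6 of 18 were higher and 7 lower, where 22.8% and 23.0% of all genes were, and 3 to 5 were higher and 6 lower without any 1 of the Y428F PTH libraries. The points farthest from 0 in the plot of the lists were *Mef2c* and *Dlx6*, named after their values were seen. *Dlx6* had 2 to 7 counts in each WT library and 0 in each Y428F library, and *Mef2c* had 0 in each WT library and 1 to 7 in each Y428F library, too few for a fold change to be read.

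The second list held 20 genes of bone matrix and its processing. With PTH in WT cells, 1 of 18 rose, the collagen cross-linking enzyme *Loxl2* (0.60, adjusted p = 0.0386), and none fell. Without the 2 WT libraries that stood apart, 1 rose and 2 fell, and *Loxl2* did not pass (adjusted p = 0.0717). In Y428F cells 1 of 19 rose and 3 fell. These shares compare with 6.88% and 4.91% of all genes in WT cells and 6.61% and 5.78% in Y428F cells. *Tnc* (tenascin C) rose by 0.61 (adjusted p = 0.00398). *Col1a1* (-0.33, adjusted p = 0.0218), a main collagen gene of bone, *Thbs2* (-0.31, adjusted p = 0.0356) and *Bmp1* (-0.24, adjusted p = 0.023), the procollagen protease, passed as lower. These 3 calls rested on PTH replicate 1, whose summed matrix level was 18116 CPM against 22022 and 21003 CPM in the other PTH libraries and 22480 to 23964 CPM with vehicle. Without it 1 gene of the list rose and 0 fell, with *Col1a1* at -0.21 (adjusted p = 0.124), *Thbs2* at -0.24 (adjusted p = 0.157, and 0.0567 without PTH replicate 3) and *Bmp1* at -0.17 (adjusted p = 0.119). The *Col1a1* level was 7049 and 6833 CPM in WT cells with vehicle and PTH, and 5455 and 4339 CPM in Y428F cells.

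Between the lines, 12 of 19 matrix genes were lower and 3 higher in Y428F cells with vehicle, where 22.7% of all genes were lower and 22.4% higher, and the median log2 fold change was -0.42 against 0.01 over all genes. With PTH 11 were lower and 3 higher, where 23.0% and 22.8% of all genes were, with a median of -0.47 against 0.02. The lower genes had the direction of *Spp1* and *Sparc*. These counts stayed at 10 to 12 lower and 3 higher without the 2 WT libraries or without any 1 of the Y428F PTH libraries. The proteoglycan biglycan (*Bgn*, -1.13, adjusted p = 1.27e-10), the matricellular gene *Thbs2* (-1.54, adjusted p = 4.22e-11) and the mineralization inhibitor *Mgp* (-0.99, adjusted p = 0.00322) were lower with vehicle. Between the lines with PTH, *Col1a2* was lower in Y428F cells (-0.96, adjusted p = 2.02e-09). With vehicle it also averaged less there, 7745 CPM against 12829 CPM in WT cells. The collagen cross-linking enzymes went the other way, *Loxl2* at 2.42 (adjusted p = 6.88e-12) and *Lox* at 1.00 (adjusted p = 6.35e-10), as did *Tnc* at 1.80 (adjusted p = 9.3e-09).

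The third list held 16 genes of mineralization and phosphate handling, the setting of *Alpl* and *Phex*. With PTH in WT cells 2 of 14 rose and 1 fell (all genes, 6.88% and 4.91%), and in Y428F cells 2 rose and 2 fell (all genes, 6.61% and 5.78%). The counts became 3 and 2 in WT cells without the 2 libraries that stood apart, and in Y428F cells 1 and 0 without PTH replicate 1, 0 and 1 without PTH replicate 2 and 1 and 3 without PTH replicate 3. The phosphate transporter *Slc20a1* rose in both lines (0.38, adjusted p = 0.0147, and 0.30, adjusted p = 0.0142, or 0.0539 without Y428F PTH replicate 2). The vitamin D receptor gene *Vdr* fell in both (-0.50, adjusted p = 0.0253, and -0.38, adjusted p = 0.0301, or 0.0767 without Y428F PTH replicate 1 and 0.0806 without Y428F PTH replicate 2). Between the lines with vehicle, 3 were higher and 4 lower, near the shares of all genes (22.4% and 22.7%), with a median of -0.05. *Mme*, the neprilysin gene of the same peptidase family as *Phex*, was lower in Y428F cells (-3.79, adjusted p = 3.84e-15), opposite to *Phex*. *Ank* (-1.71, adjusted p = 4.22e-14), which exports pyrophosphate, was also lower, and *Phospho1* (0.58, adjusted p = 0.0176, or 0.0625 without the 2 WT libraries), a phosphatase of matrix vesicles, was higher.

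Of 10 osteocyte markers 6 were tested. *Cd44*, a receptor of osteopontin, rose with PTH by 0.34 in WT cells (adjusted p = 0.00329) and by 0.31 in Y428F cells (adjusted p = 0.000865), as did the homeobox gene *Irx5* (0.31, adjusted p = 0.0123, and 0.32, adjusted p = 0.00521). No other osteocyte marker passed with PTH in either line, where 6.88% of all genes were higher in WT cells and 6.61% in Y428F cells. Between the lines with vehicle 1 was higher and 4 were lower (all genes, 22.4% and 22.7%), led by *Pdpn* (podoplanin, -1.81, adjusted p = 2.04e-08).

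**Figure D4:**
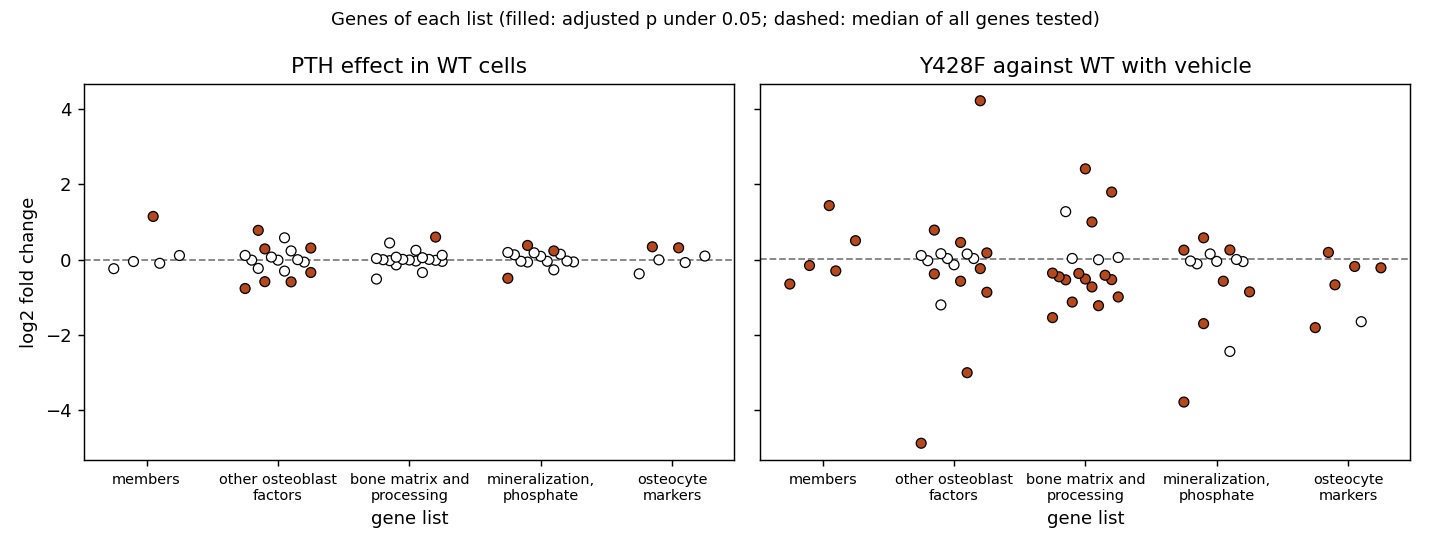
Log2 fold change of every tested gene of the members and of 4 other lists, for PTH in WT cells (left) and Y428F against WT cells with vehicle (right); only members with counts in every library are drawn, filled points had an edgeR adjusted p under 0.05, and the dashed line is the median of all genes tested. Most matrix genes lie below the line in the right panel, where 12 of 19 were called lower, and close to it in the left, where 1 of 18 was called.

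Markers of other cell types also differed between the lines. Of the 12 stromal markers, 7 of the 10 tested were lower and 2 higher in Y428F cells with vehicle, where 22.7% and 22.4% of all genes were, with *Col3a1* (-2.04, adjusted p = 1.76e-12), *Vcam1* (-1.76, adjusted p = 3.88e-15) and *Pdgfra* (-1.59, adjusted p = 2.22e-11) lower and *Ly6a* (Sca-1) higher (1.23, adjusted p = 2.37e-12). Of 8 adipocyte markers, 6 were tested, with *Cebpa* (-2.24, adjusted p = 3.37e-14) and *Fabp4* (-2.03, adjusted p = 8.67e-11) lower and *Pparg* (0.33, adjusted p = 0.000835) and *Lpl* (0.15, adjusted p = 0.0496, or 0.0519 to 0.0631 without a Y428F PTH library) higher. *Pparg*, the adipocyte lineage factor, also rose with PTH, by 0.52 in WT cells (adjusted p = 0.00135) and 0.71 in Y428F cells (adjusted p = 9.62e-07). It was the 1 gene called of 5 adipocyte markers tested in WT cells and of 6 in Y428F cells. Of all genes, 6.88% rose and 4.91% fell with PTH in WT cells, and 6.61% and 5.78% in Y428F cells. Without the 2 WT libraries that stood apart, 2 of 4 adipocyte markers rose in WT cells and 2 of 6 in Y428F cells. Of 9 cartilage markers, 7 were tested and 2, *Sox9* (-1.58, adjusted p = 5.64e-11) and *Col10a1* (-1.17, adjusted p = 0.000283), were lower in Y428F cells with vehicle, where 22.7% of all genes were. With PTH, 1 of 10 stromal markers tested rose and 2 fell in WT cells, and 1 rose and 1 fell in Y428F cells. Without the 2 WT libraries these were 2 and 5 of 9, and 1 and 3. *Pdgfra* fell in both lines (-0.59, adjusted p = 0.00146, and -0.73, adjusted p = 7.17e-05). *Vim* rose in both (0.28, adjusted p = 0.0269, and 0.22, adjusted p = 0.0128, or 0.0514 without Y428F PTH replicate 2). *Kitl* fell in WT cells (-0.23, adjusted p = 0.0403).

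Markers of blood, endothelial and muscle cells were read as well. The 8 blood cell markers summed to 1.61 to 1.80 CPM in WT vehicle libraries and 4.15 to 5.07 CPM in Y428F vehicle libraries. Their most abundant gene was *Ptprc* (CD45), at 0.698 to 0.952 and 2.48 to 3.00 CPM in those libraries. With vehicle, 2 of the 5 tested were higher in Y428F cells and none lower, where 22.4% of all genes were higher and 22.7% lower. Of 5 endothelial markers, all tested, 1 was higher and 1 lower in Y428F cells with vehicle, where 22.4% and 22.7% of all genes were. *Vwf* was lower (-1.01, adjusted p = 0.00427), named after its value was seen. *Cdh5* had 0.512 to 1.07 CPM in WT and 7.12 to 8.85 CPM in Y428F vehicle libraries (3.28, adjusted p = 1.13e-10). Of 6 muscle markers, 2 were tested, and *Des* was higher (0.97, adjusted p = 6.75e-05), where 22.4% of all genes were. The part of these markers in the differences of the osteoblast genes between the lines was not tested.

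The genes whose levels followed each member most closely over the 12 libraries were listed among 11216 genes of at least 2 CPM, by Pearson's r of log2 CPM. For *Runx2* they were *Rere* (r = 0.977), *Sntb2* (0.972) and *Dock4* (0.969). *Spp1* was followed by *Gabarapl1* (0.989), *Nrp1* (0.985) and *Cxcl12* (0.985), and *Msx2* by *Slc25a30* (0.989), *Naa10* (0.989) and *Gen1* (0.986). *Sparc* was followed by *Synj2bp* (0.961), *Cth* (0.96) and *Ttc13* (0.953), and *Phex*, at about 2 CPM, by *Smndc1* (0.962), *Jade1* (0.956) and *Ugdh* (0.955). The libraries share 4 groups and the difference between the lines, so these values describe a common pattern over groups.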

How the data were processed

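Per the labels and the methods, poly-A RNA of 12 libraries was sequenced, and the authors mapped the reads with STAR 2.7.10b to GRCm39 with GENCODE basic annotation and deposited RSEM expected counts per gene, unscaled. Reads were not analysed here. Rounded counts were fitted with edgeR 4.0.16 in R 4.3.3 (TMM, total of at least 10 counts, quasi-likelihood test, Benjamini-Hochberg adjustment over all genes tested, threshold 0.05). PTH in WT cells was fitted on 6 libraries (15583 genes) and the other comparisons on 12 (17691 genes). Standard errors were derived from the F statistic. Levels are TMM-scaled CPM, and per kb of merged exons in GENCODE vM39, to which 56236 of 56980 identifiers were matched. Principal components used log2 CPM with a prior count of 2. From each list, up to 3 genes per direction with the largest called fold change and at least 2 CPM were named, besides the members, *Bglap2*, *Bglap3*, *Yap1* and *Pth1r*. Some genes of the lists are not reported here by name. The 10 genes and the lists were chosen with earlier results of these data known. Gene lists came from general knowledge. Counts of replicate libraries varied beyond sampling noise (chi-square per degree of freedom 2.94 to 15.2). The fitting code was tested on simulated data. Alternatives were DESeq2 1.42.0, its size factors, library totals, other count filters, the replicate number as a block, all 12 libraries for WT cells, a stricter threshold, longest transcript lengths, summed osteocalcin genes, and each library left out. Leaving out 2 WT libraries together, and list genes without single Y428F PTH libraries, was added after the data were seen.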

Additional observations from a re-analysis of the deposited data

How the results depend on the processing

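Over 450 recomputed fold changes of the 5 detected genes, 425 kept their direction and their side of the threshold, 15 lost a call, 5 gained one and 5 changed sign. For PTH in WT cells the number of members called, 1, became 0 with DESeq2, with the replicate block, at an adjusted p under 0.01 with a log2 fold change beyond 0.3, and without any single library (0 to 0), and 2 without WT vehicle replicate 1 and PTH replicate 3 together. The 1837 genes called in that comparison became 821 at the stricter threshold, 2869 without those 2 libraries, and 905 to 2211 without single libraries. For PTH in Y428F cells, 2192 genes became 942 at the stricter threshold and 1435 to 2515 without single libraries. For the difference in response, 73 genes became 124 with DESeq2, 216 with a total of at least 1 count, 110 without the 2 WT libraries, 22 at the stricter threshold and 24 to 89 without single libraries. The cause of these shifts was not tested. Members called between the lines ranged from 4 to 5 with vehicle and 3 to 5 with PTH without single libraries. For PTH in Y428F cells, *Spp1* turned to -0.014 with library totals and -0.003 without Y428F PTH replicate 3, and *Sparc* to -0.033 with library totals, -0.014 without Y428F vehicle replicate 2 and -0.009 without Y428F PTH replicate 1. Without single libraries they spanned -0.003 to 0.063 and -0.014 to 0.019. Replicate numbers did not pair the samples: deviations of same-numbered libraries had a mean correlation of 0.0019 (18 pairs, -0.0311 to 0.0371). With the replicate block, *Phex* in WT cells had an adjusted p = 0.0545 and *Runx2* between the lines with PTH one of 0.0461, and no other call of a member changed. Depth limits the 5 genes with at most 7 counts in a library, for which no fold change is given, and *Phex*, with 12 to 75.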
